A study of Mus musculus with 8 samples.

Results

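A set of 10 G protein-coupled receptor genes of islet hormone release was followed in RNA from mouse pancreatic islets. They were the class B peptide hormone receptors Glp1r, Gipr, Gcgr and Vipr1, the inhibitory receptors Sstr3, Adra2a and Galr1, the muscarinic receptor Chrm3, and the class C receptors Casr and Gpr158. The genes were taken by name from those present among the 13725 genes of the deposited table, without fatty acid receptors. Of these, 10 of 10 passed the filter on low values that kept 12231 genes. Both groups were islets of female NOD mice (a strain prone to autoimmune diabetes) aged 10 weeks and with no engineered allele in the labels. One group of 4 libraries came from vehicle-treated mice and the other 4 from mice given PAHSA (spelled PASHA in the sample labels), palmitic acid esters of hydroxy stearic acids. The sources used here give no dose, isomer or length of treatment. The labels speak both of 4 mice per group and of islets combined from 2 animals, so whether a library is 1 mouse or a pool is unknown. Each p-value below measures library-to-library spread alone.

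Hormone release from islets is set by receptors that raise or lower cyclic AMP and calcium. Receptors coupled to Gs, among them the incretin receptors for GLP-1 and GIP, activate adenylyl cyclase and amplify insulin release when glucose is high. Receptors coupled to Gi and Go, such as those for somatostatin, noradrenaline and galanin, inhibit adenylyl cyclase, open GIRK potassium channels and restrain exocytosis. Receptors coupled to Gq, such as the muscarinic receptor, activate phospholipase C and release calcium from stores.

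Values are log2 CPM, the log2 of counts scaled to library size. The libraries held 34461742 to 45236238 estimated counts, and a receptor gene held from 243 (Galr1, PAHSA replicate 3) to 25356 (Glp1r, PAHSA replicate 3). Hormone genes were at the levels of islet tissue in both groups, with Ins2 at 16.35 ± 0.19 log2 CPM (SD, n = 4) in the vehicle group and 16.53 ± 0.15 with PAHSA. The values of Gcg were 16.00 ± 0.09 and 16.18 ± 0.12. In such bulk tissue, fewer cells of a type and less RNA per cell cannot be told apart. No engineered gene was available to check the group labels.

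Levels were compared between receptor genes on a scale of log2 CPM per kb of the longest coding transcript in GENCODE M21, since a longer transcript yields more counts at the same number of molecules. Glp1r, the receptor for GLP-1, was highest at 6.56 ± 0.24 (SD over 8 libraries). Sstr3, a somatostatin receptor found on primary cilia, followed at 4.60 ± 0.15, and Adra2a, the receptor through which noradrenaline inhibits insulin release, at 3.75 ± 0.21. The ranges of these top 3 over the 8 libraries did not overlap. From Adra2a downward, neighbours in the order overlapped in their ranges: Gpr158 at 3.48 ± 0.34, Vipr1 at 3.41 ± 0.42, Gcgr at 3.40 ± 0.88, Casr at 2.74 ± 0.31, Gipr at 2.42 ± 0.54, Galr1 at 2.20 ± 0.60 and Chrm3 at 1.42 ± 0.71. With the union of all annotated exons as the length, Gipr and Galr1 changed places and the order was otherwise the same.

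**Figure D1:**
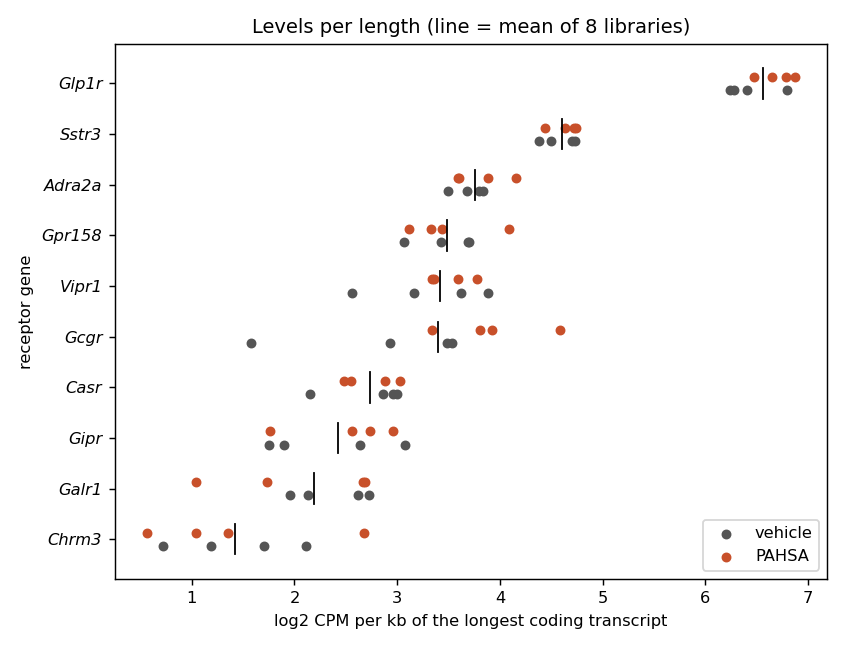
Level of each receptor gene on the horizontal axis, as log2 CPM per kb of the longest coding transcript, with 1 point per library (grey for vehicle, red for PAHSA) and a line at the mean of 8 libraries. Glp1r stands apart at 6.56, Sstr3 and Adra2a follow, and the points of the lower 7 genes overlap from one gene to the next.

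Glp1r (ENSMUSG00000024027, GRCm38 chromosome 17 from 30901817 to 30940791), the target of incretin drugs, was at 9.33, 8.78, 8.82 and 8.94 log2 CPM in vehicle replicates 1, 3, 4 and 5. In PAHSA replicates 1, 2, 3 and 4 it was at 9.41, 9.18, 9.32 and 9.01. All 4 PAHSA libraries were above the vehicle median, but vehicle replicate 1 lay within the PAHSA range, so the groups overlapped. The difference was 0.26 (SE 0.13), a fold of 1.20 with a 95% confidence interval from 0.977 to 1.47, and did not pass (limma adjusted p = 0.710 over all genes tested; exact permutation p = 0.143). Every alternative analysis that could alter the difference gave a positive one, from 0.08 to 0.41.

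Gcgr (ENSMUSG00000025127, chromosome 11 from 120530699 to 120538986), the receptor for glucagon, which beta cells also carry, was at 4.45, 4.50, 3.90 and 2.54 log2 CPM in vehicle replicates 1, 3, 4 and 5. It was at 5.55, 4.77, 4.90 and 4.31 in PAHSA replicates 1, 2, 3 and 4. Of the 4 PAHSA libraries, 3 exceeded every vehicle library, whereas PAHSA replicate 4 lay below vehicle replicates 1 and 3. Its difference of 1.04 (SE 0.43) was the widest of the 10 genes, a fold of 2.05 with an interval from 1.06 to 3.95. It did not pass over all genes (limma adjusted p = 0.671; exact permutation p = 0.0857). Vehicle replicate 5 was the low library of this gene, and without it the difference was 0.60.

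Gipr (ENSMUSG00000030406, chromosome 7 from 19156061 to 19166127), the receptor for the incretin GIP, was at 4.59, 3.42, 3.27 and 4.15 log2 CPM with vehicle and at 4.25, 4.08, 4.47 and 3.27 in PAHSA, in the same library order. Both groups ran from 3.27 to about the same height and overlapped almost fully. The difference was 0.16 (SE 0.36; limma adjusted p = 0.946), with a fold interval from 0.640 to 1.95, which leaves room for changes of either direction. Without vehicle replicate 4 it was -0.035, and without PAHSA replicate 4 it was 0.41. Vipr1 (ENSMUSG00000032528, chromosome 9 from 121642716 to 121672954), a receptor for the neuropeptides VIP and PACAP, was at 5.92, 5.45, 4.85 and 6.18 in vehicle and at 6.07, 5.65, 5.63 and 5.88 in PAHSA. The PAHSA libraries all lay inside the vehicle range. Its difference was 0.21 (SE 0.26; limma adjusted p = 0.890), and -0.041 without vehicle replicate 4, the lowest library.

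Of the summed level per length of these 4 class B receptors, Glp1r took 78.4% ± 2.71 in vehicle and 76.0% ± 2.31 in PAHSA (SD, n = 4). Gcgr took 7.54% ± 3.62 and 11.3% ± 2.52, with the lowest share of 2.74% in vehicle replicate 5 and the highest of 14.8% in PAHSA replicate 1. The shares of Gipr (4.74% ± 1.26 and 4.27% ± 1.03) and Vipr1 (9.36% ± 3.09 and 8.49% ± 1.47) lay within each other's spread.

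**Figure D2:**
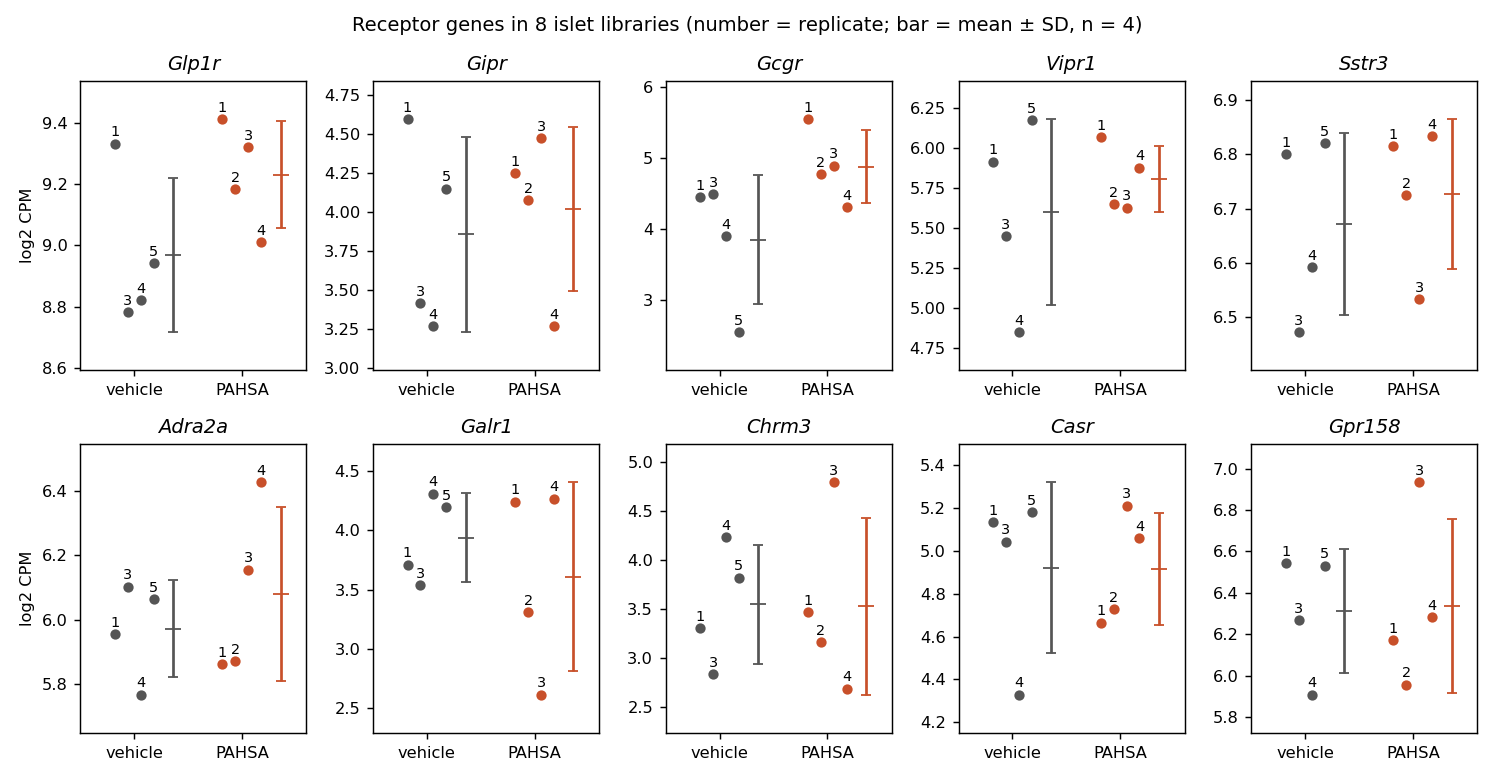
Log2 CPM of each of the 10 receptor genes, with 1 point per library labelled by its replicate number, and the mean ± SD of the 4 libraries of a group beside the points (axes differ between panels). In Gcgr the PAHSA points lie from 4.31 to 5.55 and the vehicle points from 2.54 to 4.50, and in all 10 panels the groups overlap.

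Among the inhibitory receptors, Sstr3 (ENSMUSG00000044933, chromosome 15 from 78537008 to 78544685) was the steadiest of the 10 genes. It was at 6.80, 6.47, 6.59 and 6.82 log2 CPM with vehicle and at 6.82, 6.73, 6.53 and 6.83 in PAHSA. The groups covered nearly the same range, and the difference of 0.06 (SE 0.12; limma adjusted p = 0.944) had a fold interval from 0.860 to 1.25. Adra2a (ENSMUSG00000033717, chromosome 19 from 54044151 to 54048982) was at 5.96, 6.10, 5.77 and 6.07 in vehicle and at 5.86, 5.87, 6.16 and 6.43 in PAHSA. PAHSA replicates 3 and 4 were above, and PAHSA replicates 1 and 2 within, the vehicle range. The difference was 0.11 (SE 0.16; limma adjusted p = 0.910), with a fold interval from 0.846 to 1.37, and was -0.0092 without PAHSA replicate 4.

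Galr1 (ENSMUSG00000024553, chromosome 18 from 82392380 to 82406777), a receptor for the inhibitory neuropeptide galanin, was at 3.71, 3.54, 4.31 and 4.20 log2 CPM with vehicle and at 4.24, 3.31, 2.62 and 4.27 in PAHSA. PAHSA replicates 2 and 3 were below every vehicle library and PAHSA replicates 1 and 4 near the vehicle maximum. The difference of -0.33 (SE 0.39; limma adjusted p = 0.886) was 0.0014 without PAHSA replicate 3 and -1.30 with the mean of beta cell markers as a covariate.

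Chrm3 (ENSMUSG00000046159, chromosome 13 from 9875486 to 10360847), the Gq-coupled receptor through which acetylcholine promotes insulin release, was at 3.30, 2.83, 4.23 and 3.82 log2 CPM with vehicle and at 3.47, 3.16, 4.80 and 2.68 in PAHSA. The PAHSA group held both the highest and the lowest library of the 8. The means differed by -0.019 (SE 0.47; limma adjusted p = 0.997), and the fold interval from 0.483 to 2.02 was the widest of the 10 genes on the log scale. Casr (ENSMUSG00000051980, chromosome 16 from 36493696 to 36562141), the calcium-sensing receptor, was at 5.14, 5.04, 4.33 and 5.18 in vehicle and at 4.67, 4.73, 5.21 and 5.06 in PAHSA. Vehicle replicate 4 was low, and the other 3 vehicle libraries lay within the PAHSA range. The difference was -0.0059 (SE 0.23; limma adjusted p = 0.998).

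Gpr158 (ENSMUSG00000045967, chromosome 2 from 21367542 to 21830547), a class C receptor of the synapse that binds the regulator RGS7, was at 6.54, 6.27, 5.91 and 6.53 log2 CPM with vehicle and at 6.17, 5.96, 6.93 and 6.28 in PAHSA. PAHSA replicate 3 was the one library above the vehicle range. The difference was 0.023 (SE 0.22; limma adjusted p = 0.990), and -0.18 without PAHSA replicate 3. An exon of Gpr158 overlaps the annotated gene Gm13327 on the opposite strand, and the libraries do not mark strand, so reads of the shared stretch cannot be assigned to either gene. None of the other 9 receptor genes shares exon positions with another annotated gene.

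Across the 10 genes, 7 were higher and 3 lower in PAHSA on average, with a median difference of 0.08, beside 49.1% higher and a median of -0.0056 over all genes tested. In limma, 0 of 10 passed an adjusted p of 0.05, and the same was true of 0.0% of all genes tested. At an unadjusted p under 0.05 there was 1, Gcgr, beside 7.31% of all genes. The groups were separated without overlap in 0 of the 10 genes, beside 4.01% of all genes. These shares are too close to the background to set the receptors apart.

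**Figure D3:**
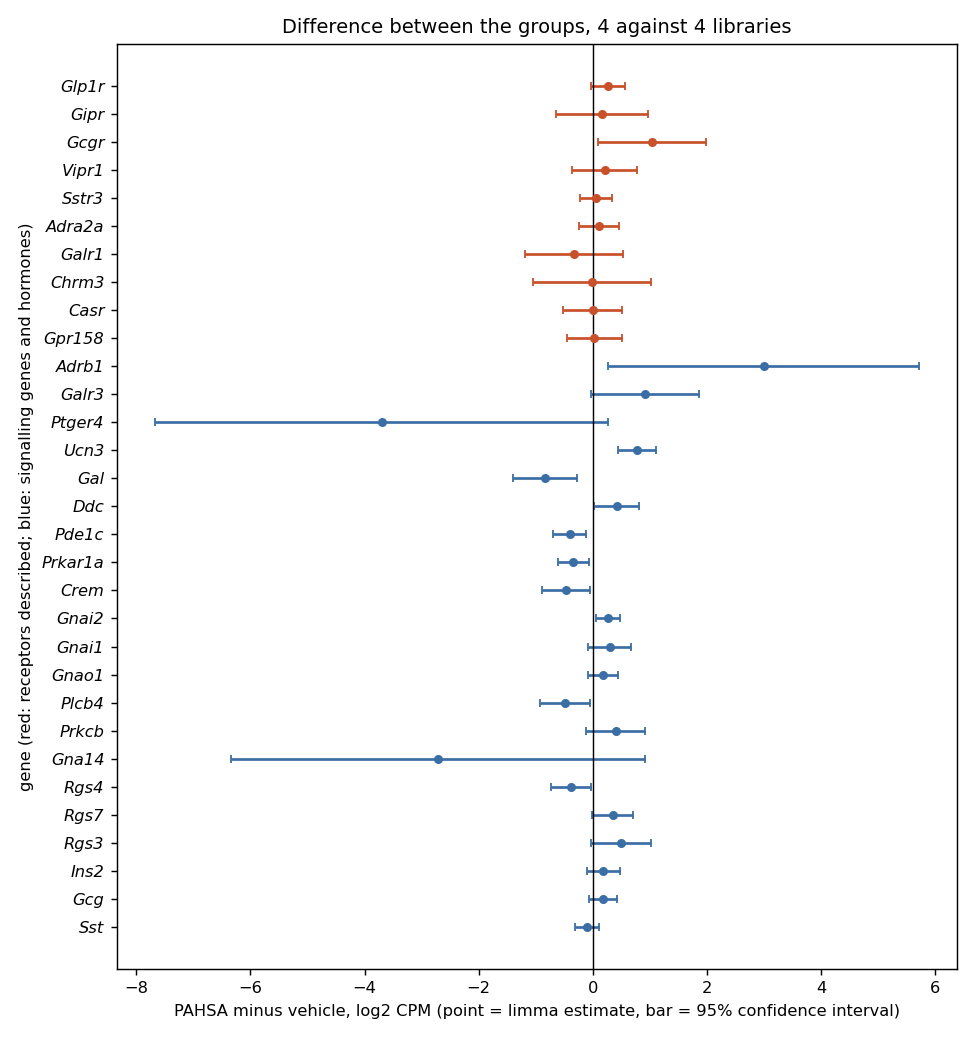
PAHSA minus vehicle in log2 CPM for the 10 receptor genes (red) and for signalling genes and hormones (blue), each with its limma estimate as a point and the 95% confidence interval as a bar. The interval of Gcgr lies above 0, those of the other 9 receptor genes include 0, and Adrb1, Ptger4 and Gna14 have the widest bars.

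The receptor genes differed in how far libraries of 1 group spread. Against genes of similar level (mean log2 CPM within 0.5), the within-group SD of Gcgr was at the 94.9th percentile of 2386 genes, that of Vipr1 at the 90.8th of 2333 and that of Gpr158 at the 90.8th of 1774. Glp1r was at the 85.0th of 140 genes, Chrm3 at the 83.6th, Galr1 at the 76.4th, Gipr at the 76.25th and Casr at the 53.4th. Adra2a at the 42.5th and Sstr3 at the 23.6th were steadier. Vehicle replicate 4 had the lowest value of 5 of the 10 genes (Gipr, Vipr1, Adra2a, Casr and Gpr158) and the highest of Galr1. Vehicle replicate 5 was above the 8-library median in 8 of 10 genes, and vehicle replicates 3 and 4 and PAHSA replicate 2 in 2 of 10 each.

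Markers of islet and other cells moved with these groups and libraries. The mean log2 CPM of 8 of 8 beta cell markers was 9.10 to 9.40 in vehicle and 9.46 to 9.68 in PAHSA, without overlap. Of these markers 7 were higher and 1 lower in PAHSA. Their summed CPM did overlap, at 103422 to 138390 in vehicle and 108886 to 140158 in PAHSA. With the mean log2 CPM as a covariate the difference was 0.08 for Glp1r, 1.63 for Gcgr, -1.30 for Galr1, -0.31 for Vipr1 and -0.22 for Sstr3. Summed CPM of 12 of 12 acinar markers ran from 6933 to 29238 in vehicle, highest in replicate 4, and from 379.7 to 10408 in PAHSA, lowest in replicate 4. With the acinar mean as a covariate Gcgr differed by 1.03 and Glp1r by 0.31. Summed CPM of 9 of 9 stellate cell markers was 66.0 to 253 in vehicle and 25.4 to 113 in PAHSA, and Lum was at the lowest value in 2 libraries. Their mean log2 CPM was 1.89 to 3.90 in vehicle and 0.050 to 1.70 in PAHSA, without overlap. A fit that included this stellate mean gave a difference of 1.63 for Gcgr, -1.06 for Chrm3, -0.77 for Galr1 and 0.35 for Adra2a. Since the beta cell mean and the stellate mean each separate the groups, their part and that of the treatment cannot be told apart in those fits. The mean of 8 of 8 alpha cell markers overlapped between groups, at 7.005 to 7.34 and 7.11 to 7.46, as did that of 3 of 5 delta cell markers, at 8.30 to 8.52 and 8.21 to 8.51. The mean of 6 of 7 duct cell markers was 6.18 to 6.56 in vehicle and 5.34 to 6.15 in PAHSA, also without overlap. Summed CPM of the duct markers overlapped, at 2931 to 4813 in vehicle and 2232 to 3045 in PAHSA. The part of delta, duct, endothelial and immune cells in the receptor values was not tested. No marker of duct cells, endothelial cells (3 of 8) or Schwann cells (2 of 4) was at the lowest value in any library, and among immune cell markers (5 of 13 in the table) Cd8a was, in 1 library.

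Of the ligands, Gcg, which encodes both glucagon and GLP-1 and so serves Gcgr and Glp1r, differed by 0.18 (SE 0.11; limma adjusted p = 0.748). Gal, which encodes the Galr1 ligand galanin, was at 4.94, 5.12, 5.24 and 4.16 log2 CPM in vehicle replicates 1, 3, 4 and 5 and at 3.93, 4.25, 3.87 and 4.05 in PAHSA replicates 1, 2, 3 and 4. Of the 4 PAHSA libraries, 3 were below every vehicle library, and vehicle replicate 5 fell between PAHSA replicates 4 and 2. The difference was -0.84 (SE 0.26; limma adjusted p = 0.671; exact permutation p = 0.0571). Sst, the ligand gene of Sstr3, differed by -0.10 (SE 0.10). Ucn3, a beta cell peptide that acts on corticotropin-releasing hormone receptors, differed by 0.77 (SE 0.15; limma adjusted p = 0.671; exact permutation p = 0.0286). Ddc, a decarboxylase that makes dopamine and serotonin, differed by 0.42 (SE 0.18). In the fit with the beta cell mean, Gal differed by -0.34 and Ddc by 0.15. Ucn3 stayed between 0.63 and 0.90 over all its alternatives, that fit among them. Of 9 ligand genes tested, 4 were higher and 5 lower. In limma 0 passed and 3 (33.3%) had an unadjusted p under 0.05, beside 7.31% of all genes.

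Among 22 further tested receptor genes and receptor partners, 9 were higher and 13 lower, with a median of -0.18. In limma 0 passed and 1 (4.55%) had an unadjusted p under 0.05, beside 7.31% of all genes. Galr3, another galanin receptor, was at 2.77, 1.80, 1.36 and 3.04 log2 CPM with vehicle and at 3.24, 3.39, 3.15 and 2.82 in PAHSA. Its libraries of the PAHSA group were high and close together, with PAHSA replicate 4 inside the vehicle range. The difference was 0.91 (SE 0.43; limma adjusted p = 0.687). Adrb1, a Gs-coupled adrenaline receptor, was at 1.14, -1.50, -4.59 and -0.57 in vehicle and at 2.84, -0.03, 2.69 and 0.95 in PAHSA. The value of -4.59 stands for 1 estimated count, and the difference of 2.99 (SE 1.23) falls to 1.92 without vehicle replicate 4 and to 1.38 on log2(CPM + 1). Ptger4, a Gs-coupled prostaglandin receptor, differed by -3.70 (SE 1.79; -2.14 without PAHSA replicate 4 and -1.13 on log2(CPM + 1)). PAHSA replicate 4 was at the lowest value of its library, -6.32, and PAHSA replicate 2 at -4.57, which stands for 1 estimated count. PAHSA replicates 1 and 3, at 2.26 and 2.04, lay inside the vehicle range of 1.40 to 2.49.

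The transducers behind the receptors were counted in 4 lists. Of 26 tested Gs and cyclic AMP genes, 12 were higher and 14 lower, with a median of -0.04 and 0 past the limma threshold. At an unadjusted p under 0.05 there were 4 (15.4%), all lower in PAHSA, beside 7.31% of all genes, of which 369 were higher and 525 lower. Pde1c, a calcium-activated phosphodiesterase that degrades cyclic nucleotides, was at 6.53, 6.49, 6.24 and 6.35 log2 CPM with vehicle and at 5.85, 5.89, 6.26 and 5.99 in PAHSA, a difference of -0.41 (SE 0.13; limma adjusted p = 0.671). PAHSA replicate 3 alone lay inside the vehicle range. Prkar1a, a regulatory subunit that holds protein kinase A inactive, differed by -0.35 (SE 0.12; -0.070 under quantile normalization, with SE 0.13). Crem, a cyclic AMP-responsive transcription factor gene, differed by -0.48 (SE 0.19). Adcy3, an adenylyl cyclase gene and the last of these 4, differed by -1.13 (SE 0.47; limma adjusted p = 0.671). In the fit with the beta cell mean, the difference was -0.22 for Pde1c, -0.079 for Prkar1a and -0.25 for Crem.

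Of 16 tested genes of Gi and Go, beta-gamma subunits and GIRK channels, 5 were higher and 11 lower, with a median of -0.06. The 3 with the smallest p, picked on these same values, were alpha subunits and all higher. Two-sided differences of the related alpha subunit genes Gnaz and Gnai3 were 0.09 (SE 0.14) and -0.0025 (SE 0.12). Gnai2, an inhibitory alpha subunit, was at 9.30, 9.18, 9.10 and 9.18 log2 CPM with vehicle and at 9.55, 9.47, 9.57 and 9.24 in PAHSA. PAHSA replicate 4 was the one library inside the vehicle range, and the difference was 0.27 (SE 0.09; limma adjusted p = 0.671). Gnai1 differed by 0.30 (SE 0.17) and Gnao1 by 0.18 (SE 0.12). For Gnao1 it was 0.10 without PAHSA replicate 1 and -0.13 in the fit with the beta cell mean. None of these 16 genes passed in limma, with 1 (6.25%) at an unadjusted p under 0.05, beside 7.31% of all genes.

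Of 17 tested genes of Gq, phospholipase C, calcium release and protein kinase C, 7 were higher and 10 lower, with a median of -0.10. In limma 0 were past the threshold and 1 (5.88%) had an unadjusted p under 0.05, beside 7.31% of all genes. Plcb4, a phospholipase C, differed by -0.49 (SE 0.20). Prkcb, a protein kinase C, was at 6.48, 6.59, 5.42 and 6.58 log2 CPM in vehicle and between 6.66 and 6.68 in all 4 PAHSA libraries, so that the groups did not overlap. Its difference of 0.40 (SE 0.23; limma adjusted p = 0.744) fell to 0.12 without vehicle replicate 4. Gna14, a Gq-family alpha subunit, differed by -2.72 (SE 1.64), and by -0.65 without PAHSA replicate 4, which was at the lowest value of its library.

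Of 17 tested arrestin, receptor kinase and RGS genes, which end receptor signals, 8 were higher and 9 lower, with a median of -0.03. In limma 0 were past the threshold and 1 (5.88%) had an unadjusted p under 0.05, beside 7.31% of all genes. Rgs7, whose protein partners with GPR158 and accelerates inactivation of Gi and Go, was at 5.28, 5.13, 4.80 and 5.33 log2 CPM with vehicle and at 5.49, 5.52, 5.35 and 5.57 in PAHSA. Every PAHSA library was above every vehicle library, by a gap of little more than 0.01 at the closest pair. The difference was 0.35 (SE 0.16; limma adjusted p = 0.687; exact permutation p = 0.0286, the smallest that 70 assignments of 8 libraries allow). Rgs4 differed by -0.38 (SE 0.16; -0.10 under quantile normalization, with SE 0.20) and Rgs3 by 0.49 (SE 0.24). Over the 6 lists together, 107 genes were tested, 45 were higher and 62 lower, and 0 passed in limma. An unadjusted p under 0.05 was found for 11 (10.3%), beside 7.31% of all genes. Groups did not overlap for 4 of the 107, beside 4.01% of all genes. These were Rgs7, Prkcb, Ucn3 and Rims2, an exocytosis scaffold gene picked out once its values were known.

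**Figure D4:**
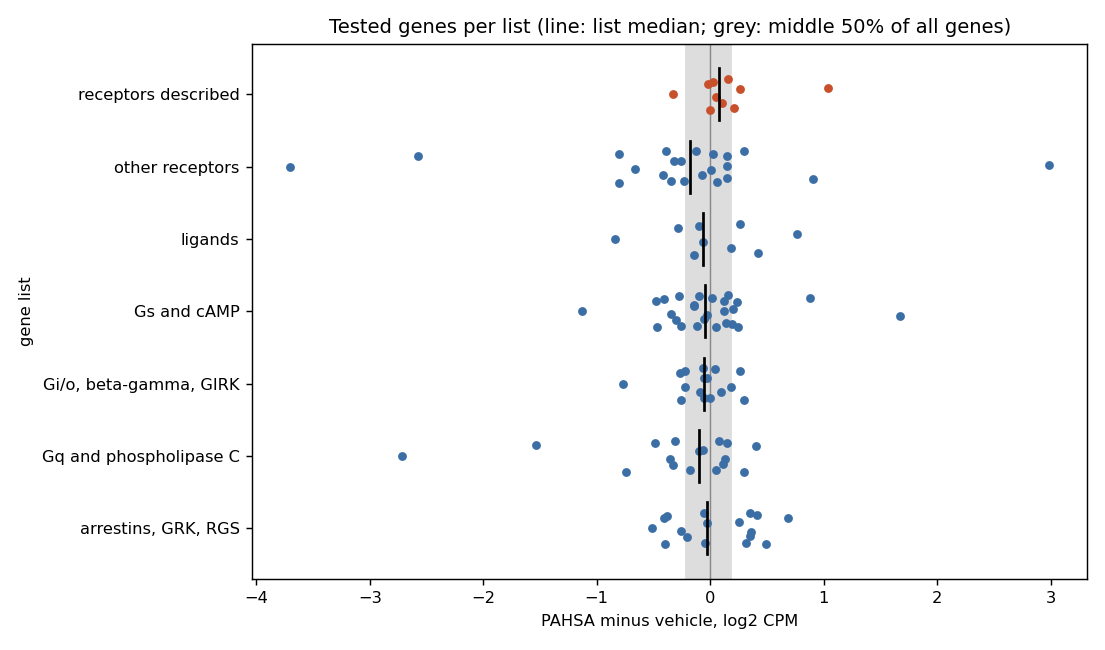
PAHSA minus vehicle in log2 CPM for the tested genes of each list, with 1 point per gene, a black line at the list median and a grey band for the middle 50% of all genes tested. The medians of the 7 lists run from -0.18 for the other receptors to 0.08 for the 10 receptor genes, all inside the grey band.

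The genes most like Glp1r over the 8 libraries, by the root mean square difference of log2 CPM centred on each gene's mean, were Zbtb1 (0.06), Nosip (0.08) and Jund (0.08), where Glp1r itself deviated by 0.23 about its mean. Those most like Adra2a, which deviated by 0.20, were Gmps (0.06), Cpsf1 (0.08) and Zmynd8 (0.08). They were picked from 11473 genes over 8 libraries and their likeness is a description.

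The differences of Glp1r and Gcgr kept their sign in each of the 21 alternatives run for them. Some of the 21 could not change the sign of any gene, so these counts overstate how often the sign was tested. With no filter, a stricter filter or no variance trend, the difference stayed at 0.26 for Glp1r and 1.04 for Gcgr, since these settings leave the group means as they are. Gipr changed sign in 2, Vipr1 in 3, Sstr3 in 4, Adra2a in 3, Galr1 in 1, Gpr158 in 5, Chrm3 in 9 and Casr in 9 of 21.

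**Figure D5:**
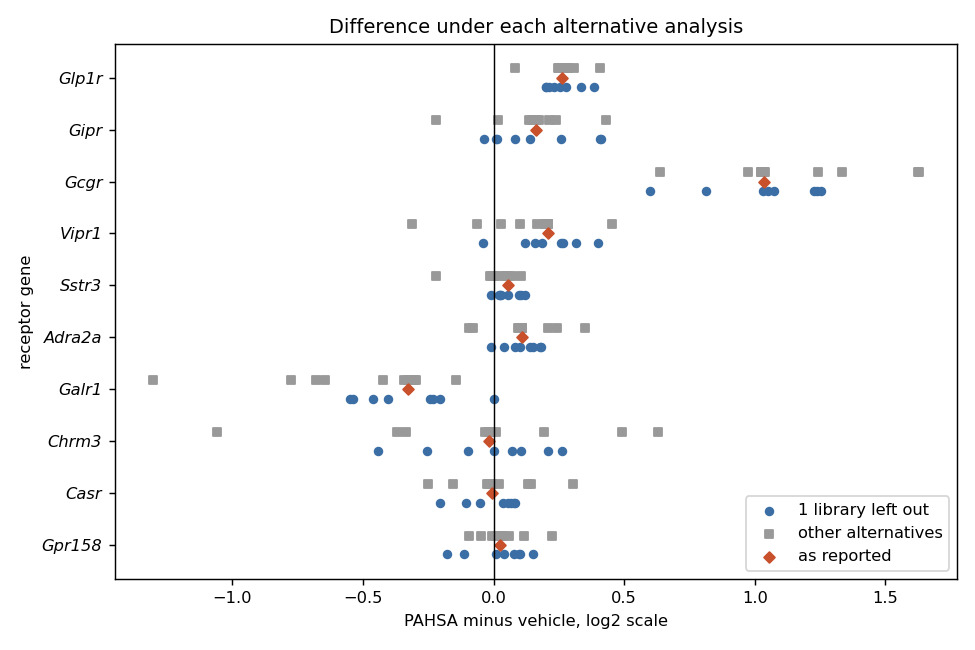
PAHSA minus vehicle on the log2 scale for each receptor gene, as reported (red diamond), with 1 library left out at a time (blue circles) and under the other alternatives (grey squares). Gcgr stays between 0.60 and 1.63 and Glp1r between 0.08 and 0.41, while the points of the other 8 genes reach both sides of 0 or, for Galr1, touch it.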

How the data were processed

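The authors deposited log2 CPM values, per the file headers and the values, in 8 columns matched to the libraries by name. Per the labels' protocols, total RNA came from a Qiagen column kit and libraries from Nextera XT, which does not mark strand. kallisto and limma were used per the submitters' processing notes. Their versions, the build and the annotation were not given in the sources used here. The lowest value of each column fits 0 counts with 0.5 added, which gave the estimated counts used to describe depth. Symbols and GRCm38 positions came from GENCODE M21, with 49 identifiers unmatched.

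Genes with a mean log2 CPM above 0 were tested (12231, leaving out 1494) with limma 3.58.1 in R 4.3.3 (lmFit, eBayes with trend), with no term but the group, two-sided, and Benjamini-Hochberg adjustment at 0.05. The method was tested on simulated data with added differences larger than that of any of the 10 receptor genes. It therefore does not show how well differences of their size would be found. Named genes were the 10 receptors, the 3 genes with the smallest p of each of 6 signalling lists, 3 hormones and the 3 genes most like Glp1r and Adra2a. For genes of the signalling lists, the exact permutation p uses the values they were picked on and is no separate support. The members and lists were chosen with earlier results of these data known. The labels name no batch. Alternatives changed the filter, the scaling, the added count, the variance trend, the covariates and the libraries.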

Additional observations from a re-analysis of the deposited data

Results flagged for a closer look

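In groups of 4 libraries, 4 of 62 groups (31 genes) had 1 library far from the other 3, with a gap to the nearest that exceeded Dixon's critical share of the range, where chance gives about 1 in 20. Casr was at 4.33 log2 CPM in vehicle replicate 4, against 5.04 to 5.18 in the other vehicle libraries. Prkcb was at 5.42 in vehicle replicate 4, against 6.48 to 6.59. Ins2 was at 16.62 in vehicle replicate 4, against 16.22 to 16.27. Gna14 was at -6.32 in PAHSA replicate 4, the lowest value of that library, against 1.21 to 2.59 in the other PAHSA libraries.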

How the results depend on the processing

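In each of 20 alternative fits, 0 of all genes and 0 of the 10 receptor genes passed in limma. The smallest adjusted p of any gene was 0.227 and of a receptor gene 0.543, with 425 to 1021 genes and 0 to 2 receptor genes at an unadjusted p under 0.05. With 1 library left out the difference ranged from 0.20 to 0.38 for Glp1r, from 0.60 to 1.25 for Gcgr, from -0.035 to 0.41 for Gipr, from -0.041 to 0.40 for Vipr1, from -0.011 to 0.12 for Sstr3 and from -0.0092 to 0.18 for Adra2a. The ranges were -0.55 to 0.0014 for Galr1, -0.44 to 0.26 for Chrm3, -0.20 to 0.080 for Casr and -0.18 to 0.15 for Gpr158. Other reversals follow, and their cause was not tested. Quantile normalization gave 0.0075 for Chrm3. It gave 0 for Gcg, Sst and Ins2, which is no reversal, since it sets any gene of constant rank to 1 value in all libraries. The acinar covariate gave -0.013 for Sstr3, -0.092 for Adra2a, 0.63 for Chrm3, -0.0072 for Gpr158, 0.58 for Gna14 and 0.044 for Sst. The stellate covariate gave 0.30 for Casr, 0.013 for Rgs4 and -0.035 for Ins2. Alternatives chosen after seeing the data were these 3. Without both libraries numbered 4 the difference was -0.066 for Vipr1, -0.0067 for Sstr3, -0.078 for Adra2a, 0.49 for Chrm3, -0.093 for Gpr158 and 0.016 for Sst. The beta cell covariate gave -0.22 for Gipr, -0.31 for Vipr1, -0.22 for Sstr3, 0.13 for Casr, -0.13 for Gnao1, 0.18 for Rgs4 and -0.00066 for Rgs3. The alpha cell covariate gave 0.021 for Casr and -0.048 for Gpr158.

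Labels give numbers 1, 3 and 4 to both groups. Deviations of same-numbered libraries correlated at -0.02 in each of 3 pairs, within the range of differently numbered pairs, from -0.05 to 0.05. The sources used here do not say what the numbers stand for. These correlations cannot decide whether same-numbered libraries were handled together. With the replicate block 0 genes passed, Gcgr differed by 0.64 and Glp1r by 0.27, and the sign turned for Chrm3 (0.19) and Casr (0.14). The lowest receptor value rested on 243 estimated counts.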

Other observations

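The larger differences of the receptor genes Adrb1, Galr3 and Ptger4 are given above. The further receptor and alpha subunit genes given here held small or poorly resolved differences and were picked out once their values were known. The somatostatin receptor genes Sstr1 and Sstr2 differed by -0.81 (SE 0.46) and -0.13 (SE 0.44), beside 0.06 (SE 0.12) for Sstr3. The GABA-B receptor subunit genes Gabbr1 and Gabbr2 differed by -0.23 (SE 0.28) and 0.01 (SE 0.16), and the adenosine receptor genes Adora1, Adora2a and Adora2b by 0.30 (SE 0.22), 0.03 (SE 0.22) and -0.07 (SE 0.35). Ghsr, the ghrelin receptor of delta cells, differed by -0.32 (SE 0.62). The stimulatory alpha subunit gene Gnas differed by 0.02 (SE 0.08) and the Gq alpha subunit gene Gnaq by 0.15 (SE 0.17). In limma 0 of these 10 genes passed, at adjusted p from 0.735 for Sstr1 upward.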
